A study of Mus musculus with 18 samples.

Results

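RNA of Arf-B cells after 8 days of a pancreatic differentiation protocol was compared with RNA of Arf-B cells at day 0. The comparison rests on 3 libraries per day and on every gene with at least 0.5 FPKM (fragments per kilobase, scaled to library size) in at least 3 of these 6 libraries. That rule kept 15392 of the 54532 genes measured, 12787 of them protein coding. It can let a gene in through a single day. Of the genes kept, 1212 reached 0.5 FPKM in all 3 day 8 libraries and in no day 0 library, and 479 did so at day 0 only, so their direction was set by the rule. Just inside the limit lay Sypl2, with 0.501 FPKM in the third highest of its 6 libraries, and just outside it Snai2, with 0.499 FPKM.

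Arf-B cells derive from ES-E14TG2a, a mouse embryonic stem cell line taken from a blastocyst. The series also holds Arf-C and Ctrlv2 cells of the same origin, for 18 libraries of polyadenylated RNA in 6 groups of 3. Day 8 cells had received activin A (20 ng/mL) on Matrigel from day 0, and retinoic acid (5 μM/ml as labelled) with FGF10 (10 ng/mL) from day 4 on. The day 0 cells were stem cells grown on gelatine in serum with leukaemia inhibitory factor, although their treatment label is also pancreatic differentiation. The genotype label of every library, Arf-B included, is wild type. The sources used here do not say how the Arf lines were made or whether Arf-B is a single clone. No source says that replicates are separate cultures, so the p-values measure only the spread between these libraries. Days, medium, matrix and added factors changed together, and their effects cannot be told apart.

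Cdkn2a, after whose alternative-frame product p19Arf the lines are named, encodes p16Ink4a and p19Arf from separate first exons. p19Arf binds Mdm2, the ubiquitin ligase that degrades p53, and thereby raises p53. In the embryo, activin and Nodal signalling through Smad2 and Smad3 specifies definitive endoderm. Retinoic acid then patterns the gut tube: it binds nuclear receptors of the Rar and Rxr families, which switch on Hox genes from the front of the clusters backwards together with the Cyp26 enzymes that degrade it. Pdx1, Ptf1a and Nkx6-1 mark the pancreatic bud. Pou5f1 (Oct4), Sox2 and Nanog hold embryonic stem cells in the pluripotent state.

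The promoters of 5 genes show the sequence context of the results, with Cyp26a1 and Rarb as direct retinoic acid targets, Hoxb1 as a Hox gene, Nanog as a pluripotency gene and Cdkn2a as the gene that encodes p19Arf. Each run is the 250 bases before a RefSeq gene start on GRCm38.p6, read along the gene from 5′ to 3′, with the motif match in capitals. The windows are chr19:37697558-37697807 (plus strand), chr14:16575477-16575726 (minus strand), chr11:96365508-96365757 (plus strand), chr6:122707239-122707488 (plus strand) and chr4:89294620-89294869 (minus strand).
Cyp26a1: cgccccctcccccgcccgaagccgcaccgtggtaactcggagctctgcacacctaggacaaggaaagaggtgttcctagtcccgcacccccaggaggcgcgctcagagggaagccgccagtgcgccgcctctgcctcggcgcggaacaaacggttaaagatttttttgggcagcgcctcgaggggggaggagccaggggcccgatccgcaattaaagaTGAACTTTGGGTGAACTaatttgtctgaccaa
Rarb: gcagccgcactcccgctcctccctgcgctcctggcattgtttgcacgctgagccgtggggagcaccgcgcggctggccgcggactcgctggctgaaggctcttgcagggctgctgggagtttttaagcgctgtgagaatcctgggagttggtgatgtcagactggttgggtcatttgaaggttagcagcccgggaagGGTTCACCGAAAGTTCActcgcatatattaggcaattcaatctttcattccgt
Hoxb1: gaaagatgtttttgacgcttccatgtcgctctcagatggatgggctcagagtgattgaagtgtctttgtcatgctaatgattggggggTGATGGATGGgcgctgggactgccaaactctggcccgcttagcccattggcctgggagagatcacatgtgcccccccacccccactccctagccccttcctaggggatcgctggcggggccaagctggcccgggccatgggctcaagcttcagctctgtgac
Nanog: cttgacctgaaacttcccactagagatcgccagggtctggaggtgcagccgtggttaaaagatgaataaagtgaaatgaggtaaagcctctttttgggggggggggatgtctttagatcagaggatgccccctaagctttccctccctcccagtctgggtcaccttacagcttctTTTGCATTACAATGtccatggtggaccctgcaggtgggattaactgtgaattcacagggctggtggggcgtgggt
Cdkn2a: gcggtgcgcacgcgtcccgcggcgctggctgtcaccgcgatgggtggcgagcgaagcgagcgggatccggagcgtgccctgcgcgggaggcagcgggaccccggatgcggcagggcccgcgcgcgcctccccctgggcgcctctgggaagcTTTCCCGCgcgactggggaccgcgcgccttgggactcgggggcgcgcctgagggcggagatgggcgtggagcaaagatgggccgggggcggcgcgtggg

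In Cyp26a1 and Rarb the capitals mark a direct repeat of 2 half-sites with 5 bases between them, the arrangement bound by Rar and Rxr pairs. Half-sites searched on both strands were AGGTCA or AGTTCA, and GGGTCA or GGTTCA. The match lies 15 bases before the start in Cyp26a1, on the minus strand of the gene, and 36 bases before it in Rarb. Of 32851 promoter windows of this length 29 held such a repeat (0.0883%). Both genes stand among the 1214 matched genes higher at day 8 by at least 2-fold, which held 2 windows with a match (0.165%), and none of the 862 matched genes lower by at least 2-fold had it. In Nanog the capitals mark an Oct-Sox composite (CATTGT, any base and then ATGCAAA or ATGCTAA, here on the minus strand), which 2 of the windows held (0.0061%), both of them of Nanog. In Hoxb1 they mark a site for Pbx with a Hox protein (TGAT, any 2 bases and then ATGG), found in 198 windows (0.603%). In the upstream Cdkn2a window they mark TTTCCCGC, 1 of 4 E2F motifs searched (with TTTGGCGC, TTTCGCGC and TTTGCCGC), which 611 windows held (1.86%). The window of the second RefSeq start of Cdkn2a, at chr4:89282193-89282442 (minus strand), held none of these E2F letters. A match describes letters in a window and is no measure of binding, and 10423 of the genes tested had a promoter in the RefSeq table.

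Depth was 17103466 to 22222425 reads on genes in the Arf-B day 8 libraries and 22945409 to 32079905 in the day 0 libraries, within a range of 10432590 to 33311220 over the series. Most genes differed between the days. By limma on log2(FPKM + 1), with Benjamini-Hochberg adjustment over the 15392 genes and calls at an adjusted p below 0.05, 5311 genes (34.5%) were higher at day 8 and 5607 (36.4%) lower. At least 2-fold on that scale, which understates changes of low genes, were 1681 rises (10.9%) and 1315 falls (8.54%). The median over all genes was -0.04. When libraries were rescaled to equal FPKM sums the median moved by 0.17 and the calls became 6590 higher and 4103 lower, 61.63% higher in place of 48.64%. A share of rises or falls near these percentages is therefore no property of a list. Each list count below is to be read against 34.5% higher and 36.4% lower. All 3 day 8 libraries lay above all 3 day 0 libraries for 5687 genes (36.9%) and below them for 6054 (39.3%).

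**Figure D1:**
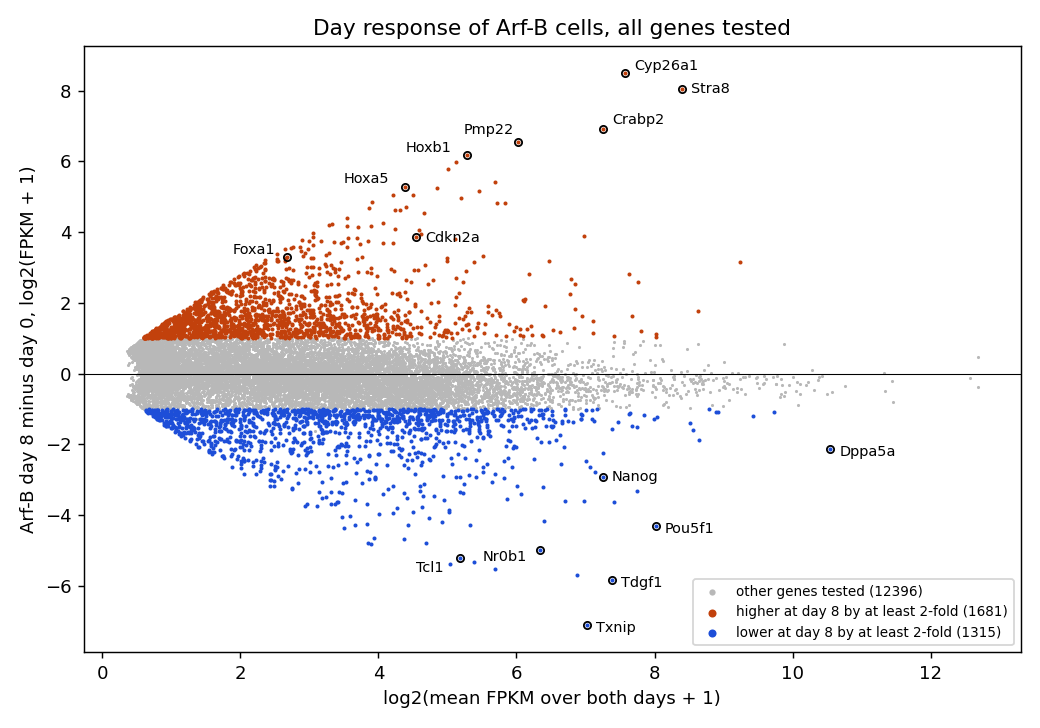
Day response of the 15392 genes tested in Arf-B cells. The horizontal axis is log2 of the mean FPKM over both days plus 1, and the vertical axis is day 8 minus day 0 in log2(FPKM + 1). Each point is a gene, orange for the 1681 higher and blue for the 1315 lower at day 8 by at least 2-fold. Cyp26a1 and Stra8 lie at the top (8.48 and 8.05) and Txnip at the bottom (-7.10).

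Cdkn2a was higher at day 8. The gene (ENSMUSG00000044303, chr4:89274471-89294653 on mm10) had 44.7, 43.2 and 40.1 FPKM in the day 8 libraries, against 1.67, 2.14 and 2.15 FPKM in the day 0 libraries (log2 fold change 3.87, SE 0.111, adjusted p = 5.81e-14). The 2 days did not overlap, and the lowest day 8 value was 40.1 FPKM. Gene-level values do not tell p19Arf from p16Ink4a transcripts. Cdkn2b, the neighbouring gene for the inhibitor p15Ink4b, rose as well, with 4.92, 4.33 and 3.91 FPKM at day 8, against 0.660, 0.601 and 0.888 FPKM at day 0 (log2 fold change 1.65, SE 0.146, adjusted p = 3.89e-08). Cdkn1a, the p21 gene and a direct p53 target, had 27.3, 27.8 and 24.7 FPKM in the day 8 libraries, against 9.62, 10.8 and 9.48 FPKM in the day 0 libraries (log2 fold change 1.33, SE 0.127, adjusted p = 9.18e-08). Mdm2 rose less, with 43.1, 42.1 and 41.2 FPKM at day 8, against 32.02, 34.9 and 27.1 FPKM at day 0 (log2 fold change 0.42, SE 0.0860, adjusted p = 3.46e-04). Trp53 itself fell, with 49.7, 51.6 and 53.4 FPKM at day 8, against 101, 111 and 111 FPKM at day 0 (log2 fold change -1.04, SE 0.0760, adjusted p = 3.48e-09). Npm1, whose product holds p19Arf in the nucleolus, also fell, with 696, 680.5 and 695 FPKM at day 8, against 967, 1184 and 1168 FPKM at day 0 (log2 fold change -0.67, SE 0.106, adjusted p = 2.87e-05).

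Among 14 genes whose products bind p19Arf or act with it, 2 rose and 10 fell (median -0.66), against 34.5% and 36.4% of all genes. The 14 genes summed to 1595.5 to 1835.3 FPKM at day 0, Npm1 included. Of all genes with a mean of 20 to 100 FPKM at day 0, 67.05% fell, and the count of falls lies near that share. The fallers include Ubtf, the factor of ribosomal RNA transcription (-1.16), Ctbp2, a co-repressor (-1.41), and Mycn (-1.19), while Ctbp1 (0.47) and Mdm2 rose. Of 27 p53 targets 16 rose and 6 fell (median 0.73), against the same shares of all genes, and 1 of the 27 passed the limit through day 8 alone. The median day response of this list was similar in the other lines, 0.68 in Ctrlv2 and 0.74 in Arf-C cells. Plk2 (1.54), Btg2 (1.5), Phlda3, an inhibitor of Akt (1.39), and Sesn1 (1.38) rose. Gdf15, a secreted stress factor, fell to 1.43, 2.905 and 2.102 FPKM at day 8, against 11.7, 13.2 and 10.9 FPKM at day 0 (-2.07), and so did Pmaip1, which encodes the death factor Noxa (-1.01). The list thus moved in both directions, with the p21 gene among its rises and Bax (-0.62) among its falls.

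Genes that handle retinoic acid included the largest rise of the comparison. All 10 members tested of 13 listed enzymes and carriers rose (median 4.82), of which 5 reached 0.5 FPKM at day 8 only. Cyp26a1, the main enzyme that oxidises retinoic acid, had 405, 399 and 332 FPKM in the day 8 libraries, against 0.0536, 0.118 and 0 FPKM in the day 0 libraries (log2 fold change 8.48, SE 0.0959, adjusted p = 2.20e-18). It was at or close to 0 in every day 0 library and at 332 FPKM or more in every day 8 library. Cyp26b1 had 68.8, 72.03 and 62.3 FPKM at day 8, against 0.118, 0.0585 and 0.0769 FPKM at day 0 (5.98). Cyp26c1 had 12.7, 11.6 and 10.3 FPKM at day 8, against 0, 0.0597 and 0.0523 FPKM at day 0 (3.59). Dhrs3, which returns retinaldehyde to retinol, had 64.2, 61.6 and 59.99 FPKM at day 8, against 0.0865, 0.143 and 0.234 FPKM at day 0 (5.77). Crabp2, which carries retinoic acid to the nucleus, had 311, 307 and 287 FPKM in the day 8 libraries, against 1.41, 1.89 and 1.31 FPKM in the day 0 libraries (log2 fold change 6.90, SE 0.133, adjusted p = 6.76e-16). Stra6, the retinol importer, had 17.2, 18.8 and 18.1 FPKM at day 8, against 0.0217, 0.0119 and 0.0235 FPKM at day 0 (4.22). Smaller rises were those of Aldh1a2, the enzyme that makes retinoic acid (0.96), and Rdh10 (0.29).

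Among 14 receptors and known targets 11 rose and 2 fell (median 1.86), and 4 of the 14 passed the limit through day 8 alone. The receptor genes did not move together. Rarb, whose promoter is shown above, had 8.97, 8.46 and 7.12 FPKM in the day 8 libraries, against 0.0361, 0.0595 and 0.0434 FPKM in the day 0 libraries (log2 fold change 3.13, SE 0.0913, adjusted p = 6.96e-14). Rara (0.53) and Rxra (0.95) rose by less. Rarg fell, with 14.1, 14.8 and 14.2 FPKM at day 8, against 45.5, 45.3 and 48.9 FPKM at day 0 (log2 fold change -1.63, SE 0.0645, adjusted p = 2.12e-12). Rxrb was not called (-0.16, adjusted p = 0.0933). Of the targets, Stra8, a factor of meiotic entry in germ cells, had 651, 680.3 and 673 FPKM in the day 8 libraries, against 1.598, 1.72 and 1.29 FPKM in the day 0 libraries (log2 fold change 8.05, SE 0.0996, adjusted p = 3.04e-18). Rec8, a cohesin gene of meiosis, had 109, 99.9 and 93.5 FPKM at day 8, against 2.58, 2.18 and 2.97 FPKM at day 0 (4.83). Nrip1, a co-repressor of nuclear receptors, rose by 2.61, and Nr2f1 and Nr2f2, which encode the COUP factors, by 2.30 and 2.34.

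**Figure D2:**
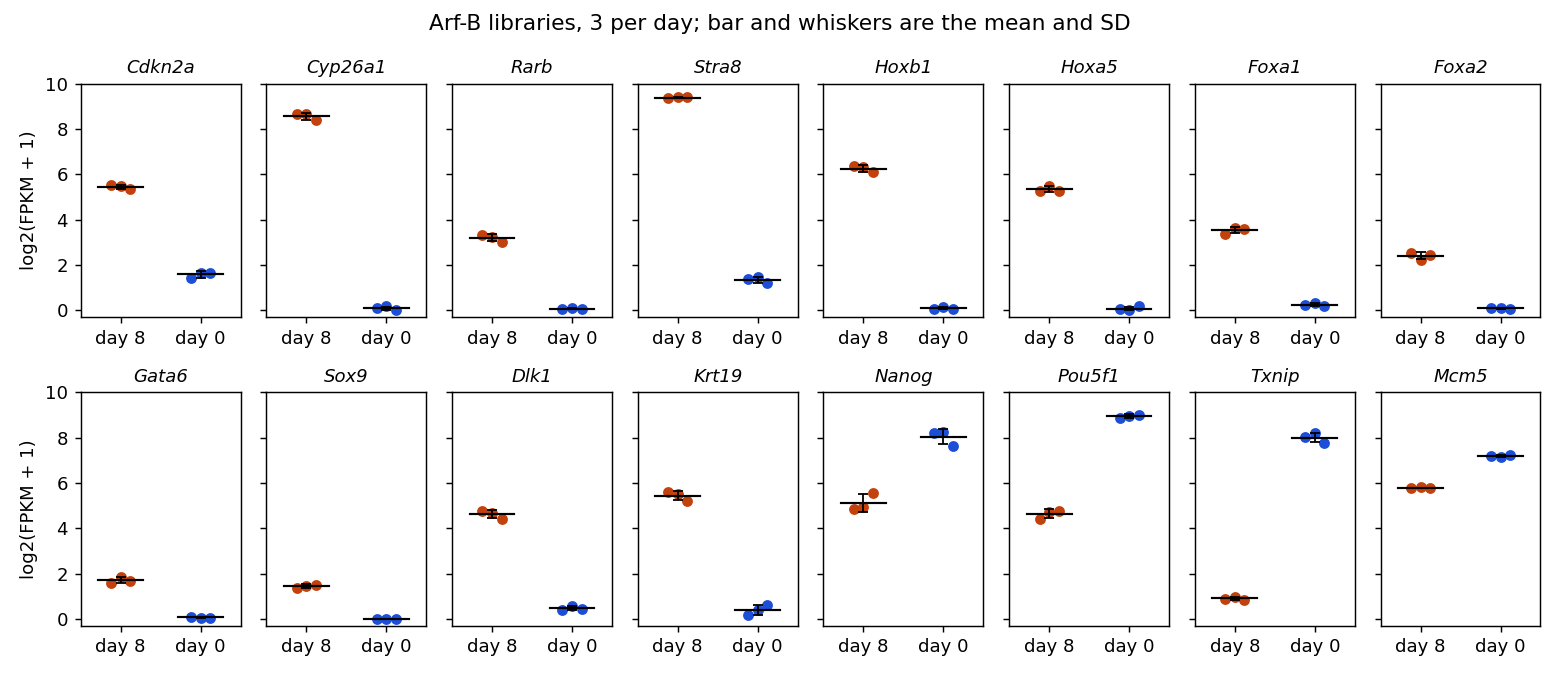
Level of 16 genes in each Arf-B library, as log2(FPKM + 1), with day 8 left and day 0 right in each panel. Points are libraries, and the bar and whiskers are the mean and SD of 3. The days do not overlap in any of the 16 panels: 12 genes, from Cdkn2a to Krt19, are higher at day 8, and Nanog, Pou5f1, Txnip and Mcm5 are lower.

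Hox genes, which give cells their position along the body axis, were mostly under 0.5 FPKM at day 0 and above it at day 8 in all 4 clusters. Of 39 listed genes 30 were tested, 28 rose and 1 fell (median 2.86). Since 26 of them passed the limit of 0.5 FPKM through day 8 alone, the count describes these genes and tests nothing. Hoxb1, the foremost gene of its cluster, had 80.2, 79.6 and 66.6 FPKM in the day 8 libraries, against 0.0409, 0.0899 and 0.0394 FPKM in the day 0 libraries (log2 fold change 6.17, SE 0.0752, adjusted p = 3.04e-18). Hoxa5 had 37.6, 43.99 and 37.8 FPKM at day 8, against 0.0337, 0 and 0.122 FPKM at day 0 (5.28). In the B cluster the values did not decline steadily with position. Hoxb2 had 8.03, 7.45 and 5.999 FPKM at day 8 and Hoxb3 3.78, 4.76 and 3.39 FPKM, below Hoxb4 with 22.9, 21.6 and 19.6 and Hoxb9 with 37.9, 38.7 and 35.4 FPKM. In the A cluster Hoxa7 had 2.57, 2.84 and 2.09 FPKM at day 8, and Hoxa9, at 0.155, 0.222 and 0.246 FPKM, stayed under the limit. Hoxa13 had 0.534, 1.13 and 0.805 FPKM. Overlapping and antisense transcripts in the clusters make single Hox values uncertain, since no source used here gives the strand of counting. In the C cluster Hoxc4 (3.75), Hoxc5 (3.53) and Hoxc8 (3.20) had the largest rises. Hoxc12 fell, with 0.0400, 0.104 and 0.257 FPKM at day 8, against 2.46, 1.55 and 2.48 FPKM at day 0 (log2 fold change -1.47, SE 0.186, adjusted p = 2.62e-06), and Hoxc13 was not called (adjusted p = 0.355). The D cluster was lower, with Hoxd8 highest at 3.13, 4.29 and 4.05 FPKM at day 8.

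**Figure D3:**
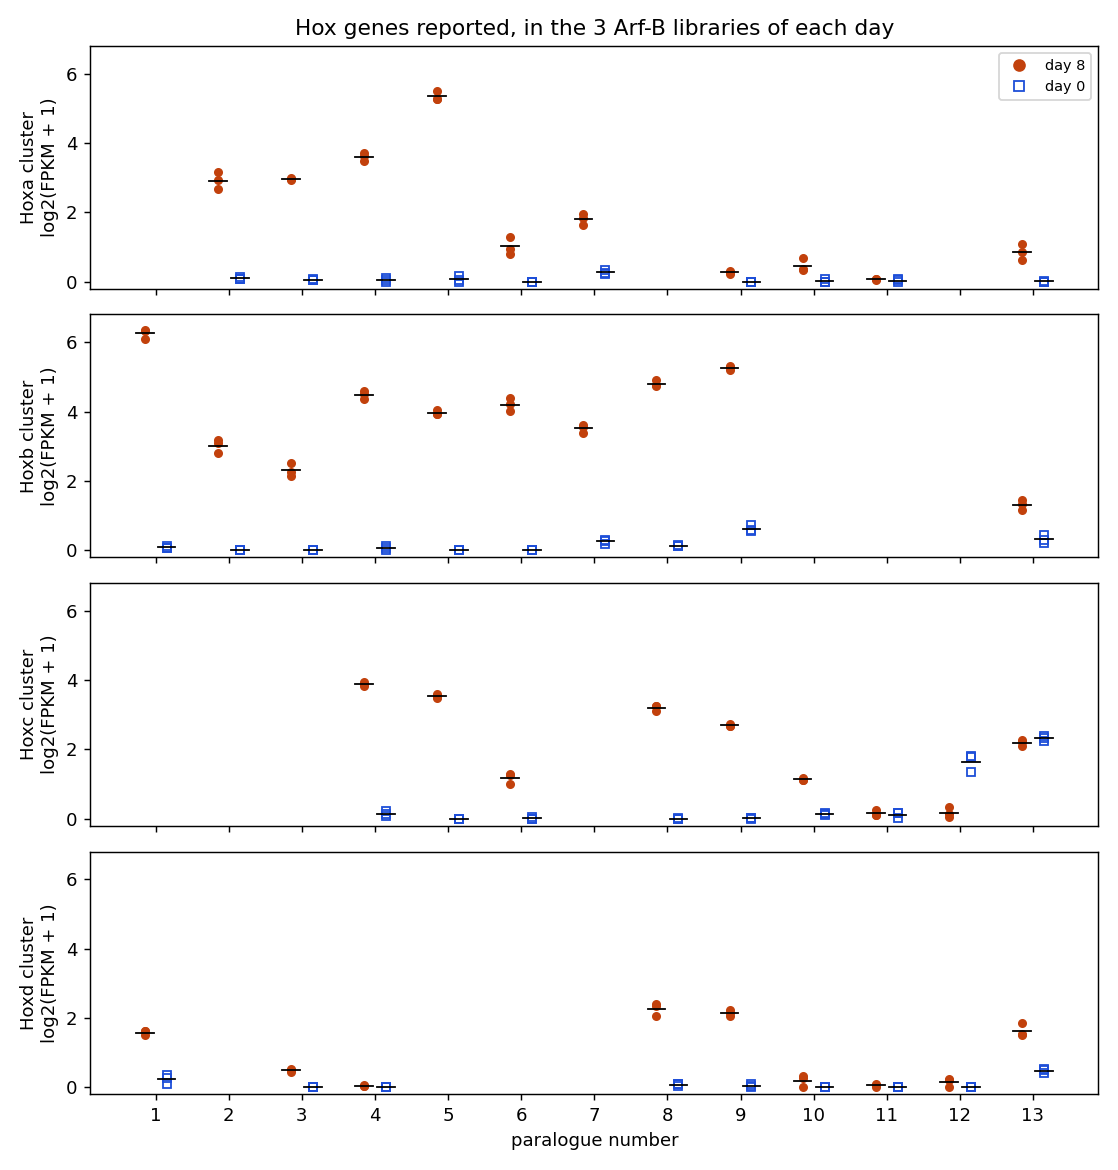
Hox genes in Arf-B cells by cluster (rows A to D) and paralogue number (horizontal axis), as log2(FPKM + 1). Filled circles are the 3 day 8 libraries, open squares to their right the 3 day 0 libraries, and bars the means. Of the genes drawn, Hoxb1, Hoxa5 and Hoxb9 stand highest at day 8, while Hoxc12 and Hoxc13 are the 2 genes tested whose mean is not higher there.

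The partners with which Hox proteins bind DNA rose too. Of 11 Meis, Pbx, Pknox and Cdx genes tested 10 rose and 1 fell (median 1.2), and 3 of the 11 passed the limit through day 8 alone. Meis2 had 21.1, 21.9 and 18.6 FPKM at day 8, against 0.686, 1.01 and 0.683 FPKM at day 0 (3.59). Pbx2 was the most abundant of them at both days, with 55.2, 53.96 and 52.1 FPKM at day 8, against 14.03, 13.2 and 13.1 FPKM at day 0 (1.92). Cdx1, a factor of the posterior body, rose by 0.74, and its homologue Cdx2 stayed below 1 FPKM, with 0.894, 0.714 and 0.822 FPKM at day 8. Over the whole table, homeobox genes as annotated in the deposited file numbered 106 among the genes tested, and 85 (80.2%) rose and 13 fell, against 34.5% and 36.4% of all genes. Of these 106 genes 53 passed the limit through day 8 alone.

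Pluripotency genes fell but were not lost. All 15 members tested of 16 naive genes fell (median -3.06). Nanog had 27.6, 30.1 and 45.98 FPKM in the day 8 libraries, against 297, 304 and 200.2 FPKM in the day 0 libraries (log2 fold change -2.93, SE 0.291, adjusted p = 3.94e-07). Its lowest day 0 library stood at 200 FPKM and its highest day 8 library at 46.0 FPKM. Klf4 had 6.57, 8.19 and 9.87 FPKM at day 8, against 117, 112 and 89.2 FPKM at day 0 (-3.54). Esrrb had 12.99, 14.8 and 19.02 FPKM at day 8, against 153, 144 and 152 FPKM at day 0 (-3.20). Zfp42, the Rex1 gene, had 34.1, 34.7 and 45.2 FPKM at day 8, against 399.7, 385 and 378 FPKM at day 0 (-3.33). Day 8 and day 0 libraries did not overlap for any of them. Deeper falls were those of Nr0b1, with 2.44, 4.61 and 5.19 FPKM at day 8, against 145, 154 and 169 FPKM at day 0 (-4.99), and Tcl1, a co-activator of Akt, with 1.01, 0.846 and 0.863 FPKM at day 8, against 66.5, 74.9 and 67.2 FPKM at day 0 (-5.21). Gbx2 fell least, to 9.24, 10.3 and 9.04 FPKM at day 8, against 11.1, 11.998 and 12.4 FPKM at day 0 (-0.29), a call lost with equal FPKM sums (adjusted p = 0.364). In bulk RNA a smaller share of pluripotent cells and less RNA per cell cannot be told apart.

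Of 15 core genes 13 fell (median -2.13), and Lin28a and Lin28b, which block let-7 maturation, were not called (adjusted p = 0.486 and 0.0839). With equal FPKM sums both were called higher. Pou5f1 had 20.2, 25.6 and 26.3 FPKM in the day 8 libraries, against 466, 498 and 518 FPKM in the day 0 libraries (log2 fold change -4.31, SE 0.174, adjusted p = 5.94e-12). Sox2 had 47.1, 49.7 and 60.2 FPKM at day 8, against 253, 275 and 223 FPKM at day 0 (-2.24). Dppa5a, among the 10 most abundant transcripts at day 0, still had 492, 521 and 659 FPKM at day 8, against 2249, 2466 and 2586 FPKM at day 0 (-2.13). Tdgf1, the Nodal co-receptor Cripto, fell to 4.04, 6.18 and 4.27 FPKM, against 321, 345 and 318 FPKM at day 0 (-5.84). Reads of its near-identical pseudogene copy Tdgf1-ps1 can be exchanged with it.

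In several lists the highest or lowest day 8 values fell mostly in 1 replicate. Replicate 3 held the highest day 8 value for 13 of 15 naive, 11 of 15 core and 8 of 9 2-cell-like genes, against 32.2% of all genes tested. It held the lowest value for 13 of 15 epithelial genes and 7 of 10 genes of retinoic acid handling, against 36.4% of all genes. Without this library the median of the naive list was -3.21 and that of the epithelial list 1.53, against -3.06 and 1.48 with it. Replicate 1 held the lowest day 8 value for 11 of 15 naive and 10 of 15 core genes, against 32.44% of all genes. Replicate 2 held the highest for 14 of 21 glycolysis and hypoxia genes, against 33.44%. What set these libraries apart was not tested.

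Markers of the endoderm were on at low levels, and those of the pancreatic bud mostly stayed under the limit. Of 12 definitive endoderm genes 9 were tested, 5 rose and none fell (median 1.23). Of these 9 genes 4 passed the limit through day 8 alone, so their direction was set by the rule. Foxa1, a pioneer factor of gut endoderm, had 9.35, 11.2 and 11.1 FPKM in the day 8 libraries, against 0.181, 0.240 and 0.137 FPKM in the day 0 libraries (log2 fold change 3.28, SE 0.105, adjusted p = 1.80e-13). Foxa2 had 4.75, 3.65 and 4.46 FPKM at day 8, against 0.0534, 0.0734 and 0.0386 FPKM at day 0 (2.32). The Gata factors of the endoderm moved the same way. Gata4 had 6.44, 6.06 and 6.67 FPKM at day 8, against 1.88, 1.497 and 1.35 FPKM at day 0 (1.53). Gata6 had 2.01, 2.59 and 2.22 FPKM at day 8, against 0.0680, 0.0311 and 0.0327 FPKM at day 0 (1.65). Sox17, a defining endoderm factor, reached 0.259, 0.237 and 0.204 FPKM at day 8 and was not tested, and Cer1 had 0, 0 and 0.0509 FPKM. Cxcr4, Hhex and Prdm1 were not called (adjusted p = 0.128, 0.138 and 0.157). Cxcr4 was called lower with thinned reads (-0.31, adjusted p = 0.0289) and without day 0 replicate 3 (adjusted p = 0.0458), and Prdm1 higher with equal FPKM sums (adjusted p = 0.0170) and without day 8 replicate 2 (adjusted p = 0.0454).

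Of 15 foregut genes 6 were tested and all rose, each having passed the limit through day 8 alone. Barx1, a stomach mesenchyme factor, was highest with 2.59, 1.92 and 3.13 FPKM at day 8 (1.70), followed by Foxf1 with 2.15, 1.78 and 1.89 FPKM (1.55), while Shh and Nkx2-1 were under the limit. Of 15 pancreatic progenitor genes 6 were tested, 5 rose and Hes1 fell (-0.74). The 5 that rose had passed the limit through day 8 alone, so their direction was set by the rule. Dlk1, a Notch-like membrane protein that is also imprinted, had 26.6, 24.2 and 20.5 FPKM in the day 8 libraries, against 0.308, 0.480 and 0.372 FPKM in the day 0 libraries (log2 fold change 4.15, SE 0.153, adjusted p = 8.78e-13). Sox9, a factor of progenitor epithelia, had 1.61, 1.74 and 1.86 FPKM at day 8 and was listed at 0 in all 3 day 0 libraries. Mnx1 had 1.01, 1.602 and 1.46 FPKM at day 8, against 0.113, 0.0773 and 0.102 FPKM at day 0. Bicc1, an RNA-binding protein gene, had 2.65, 2.38 and 2.66 FPKM at day 8, against 0.362, 0.294 and 0.197 FPKM at day 0. The factors that define the bud were lower. Pdx1, the defining gene of the pancreatic bud, had 0.382, 0.274 and 0.861 FPKM at day 8 and 0.161, 0.0322 and 0.0424 FPKM at day 0, with 1 library above 0.5. Ptf1a had 0.164, 0.535 and 0.469 FPKM at day 8 and Nkx6-1 0.0657, 0.0686 and 0.197 FPKM. Of 20 endocrine genes 12 were under 0.5 FPKM in all 6 libraries, Ins1 at 0 in each. Pax6, which is also expressed outside the pancreas, rose (1.60), and Chga, a granule protein, fell (-1.39). With a mean of at least 1 FPKM required, 1 foregut and 2 pancreatic progenitor genes were counted as higher. Of the labelled pancreatic lineage, factors of gut endoderm were thus measured at low levels, and its defining factors Pdx1, Ptf1a and Nkx6-1 stayed under the limit.

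Epithelial genes rose or were not called. Of 15 tested 11 rose and none fell (median 1.48). Krt19 had 48.04, 44.1 and 36.1 FPKM in the day 8 libraries, against 0.119, 0.319 and 0.517 FPKM in the day 0 libraries (log2 fold change 5.05, SE 0.158, adjusted p = 1.90e-13). Krt18 had 118, 112 and 95.7 FPKM at day 8, against 3.17, 2.54 and 2.96 FPKM at day 0 (4.81). Krt8 had 63.5, 62.8 and 43.6 FPKM at day 8, against 4.77, 4.88 and 4.97 FPKM at day 0 (3.27). Keratins of these types form the filaments of simple epithelia. The tight-junction gene Cldn6 had 166, 166 and 146 FPKM at day 8, against 17.7, 16.8 and 14.95 FPKM at day 0 (3.20). Cldn4 had 199, 217 and 192 FPKM at day 8, against 70.3, 73.8 and 71.9 FPKM at day 0 (1.48). Epcam and Cdh1, the E-cadherin gene, were abundant at both days. Epcam had 91.3, 95.7 and 85.9 FPKM at day 8, against 89.7, 99.9 and 95.5 FPKM at day 0 (adjusted p = 0.518). Cdh1 had 104, 101 and 96.3 FPKM at day 8, against 90.6, 89.4 and 93.4 FPKM at day 0 (adjusted p = 0.0741).

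Parietal endoderm, the extraembryonic layer that lays down Reichert's membrane, is a further fate of stem cells given retinoic acid. Of 12 of its genes tested 9 rose and 2 fell (median 1.90), and 5 of the 12 passed the limit through day 8 alone. Sox7 had 6.85, 5.97 and 6.76 FPKM at day 8, against 0.374, 0.380 and 0.319 FPKM at day 0 (2.47), and Col4a1, a collagen IV chain, had 12.3, 12.3 and 14.2 FPKM at day 8, against 2.02, 1.86 and 2.01 FPKM at day 0 (2.23). Lamb1 had 34.8, 34.5 and 32.1 FPKM at day 8, against 6.02, 5.52 and 6.47 FPKM at day 0 (2.31). Lama1, the laminin chain typical of that membrane, fell instead, to 3.99, 4.55 and 5.59 FPKM at day 8, against 14.1, 11.3 and 15.8 FPKM at day 0 (log2 fold change -1.36, SE 0.172, adjusted p = 3.19e-06). Among 21 basement membrane and integrin genes 13 rose and 5 fell, against 34.5% and 36.4% of all genes, and 3 of the 21 passed the limit through day 8 alone. Itga3 had 75.8, 77.95 and 69.1 FPKM at day 8, against 7.395, 6.402 and 8.45 FPKM at day 0 (3.17), whereas Itga6 (-1.49) and Nid1 (-1.68) fell.

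**Figure D4:**
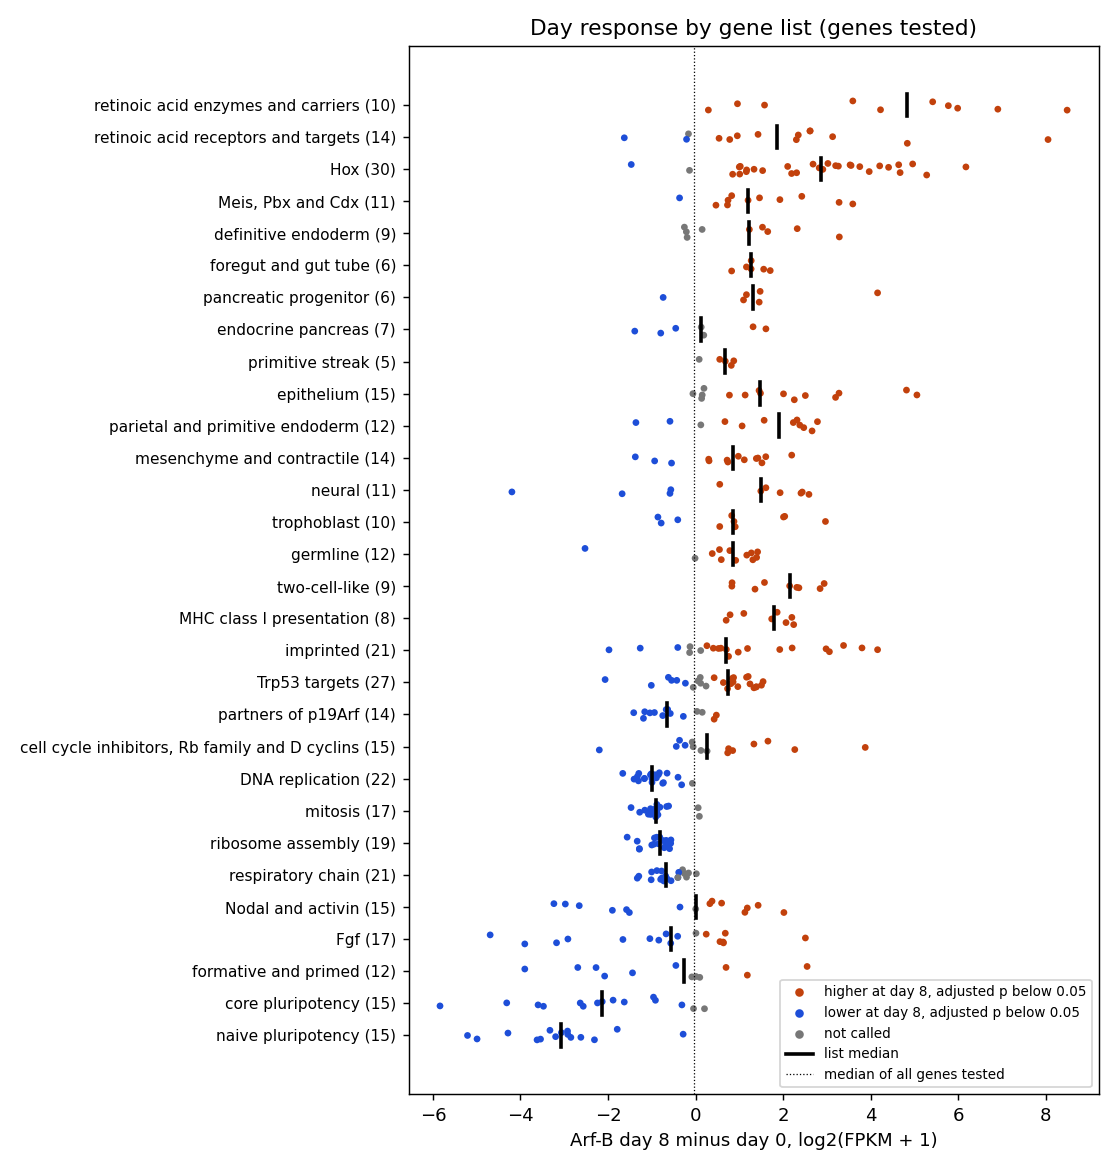
Day response of the tested genes of 30 lists in Arf-B cells, as day 8 minus day 0 in log2(FPKM + 1). Each point is a gene, orange if called higher, blue if called lower and grey if not called; black bars are list medians and the dotted line the median of all genes. Retinoic acid handling (4.82) and Hox (2.86) have the highest medians, and the naive (-3.06) and core (-2.13) lists the lowest.

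Markers of other cell types that such cultures can hold moved in both directions. Of 14 mesenchymal genes tested 11 rose and 3 fell (median 0.86). Pdgfrb, a receptor of platelet-derived growth factor, rose to 6.48, 6.41 and 6.598 FPKM, against 0.555, 0.514 and 0.868 FPKM at day 0 (2.19), while Fn1 (-1.38) and Vim (-0.94) fell. The 20 genes summed to 111 to 126 FPKM at day 8 and 190.2 to 232 FPKM at day 0. In the neural list 7 of 11 rose and 4 fell. The rises include Zic1 (2.59), Nes (2.43) and Irx3 (2.41), which reached 4.29, 4.81 and 4.597 FPKM. The neuronal genes Tubb3 (-1.68) and Stmn2 (-4.20) fell, and Neurog2 and Olig2 were under the limit. The 17 neural genes summed to 33.1 to 34.3 FPKM at day 8 and 71.01 to 79.9 FPKM at day 0. Of 12 blood genes 10 were below 0.5 FPKM in all 6 libraries, haemoglobins and Ptprc included, and the sum was 1.17 to 1.604 FPKM at day 8 and 1.54 to 1.76 FPKM at day 0. Of 4 endothelial genes tested 2 rose and 2 fell. Pecam1, which stem cells also express, fell to 1.18, 1.59 and 1.97 FPKM, against 37.5, 36.1 and 31.2 FPKM at day 0 (-3.81), and Cdh5 was under the limit. Of 4 heart genes tested 3 rose, Nkx2-5 most, with 2.41, 3.39 and 2.698 FPKM at day 8, against 0.249, 0.479 and 0.390 FPKM at day 0 (1.48), and Tnnt2, Myh6 and Myh7 were under the limit. Among trophoblast genes 7 of 10 rose and 3 fell, with Elf5 and Tpbpa under the limit. The largest rise was that of Esx1, with 9.85, 10.98 and 9.69 FPKM at day 8, against 0.574, 0.403 and 0.322 FPKM at day 0 (2.96). Afp, Alb and Ttr, which mark liver and visceral endoderm, stayed below 0.5 FPKM in all 6 libraries, and Apoe fell (-1.20). T and Mixl1, factors of the primitive streak, were not tested, and Eomes rose to 1.002, 1.48 and 1.41 FPKM, against 0.472, 0.586 and 0.627 FPKM at day 0 (0.55). Genes that passed the limit through day 8 alone were 5 mesenchymal, 6 neural, 4 trophoblast, 3 heart and 2 endothelial genes. Another 2 neural genes passed it through day 0 alone. The direction of all these genes was set by the rule. With a mean of at least 1 FPKM required, the risers were 5 mesenchymal, 4 trophoblast and 1 heart gene and no endothelial gene. The part of other cell types in these results was not tested.

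Genes of the 2-cell-like state, a rare embryo-like state of stem cell cultures, and of the germline were also higher at day 8. All 9 of 13 2-cell-like genes tested rose (median 2.15), each having passed the limit through day 8 alone. Zscan4c had 6.61, 6.69 and 10.98 FPKM at day 8, against 0.125, 0.244 and 0.120 FPKM at day 0 (2.93). The Zscan4 and Usp17l genes are near-identical copies, so the split of reads among them is uncertain. The third day 8 value is the highest for Zscan4c, and so is that of Tmem92, with 2.41, 3.27 and 6.17 FPKM at day 8, against 0.0434, 0.0636 and 0.0836 FPKM at day 0 (2.15). Of 12 germline genes 10 rose and 1 fell (median 0.85), against 34.5% and 36.4% of all genes, and 1 of the 12 passed the limit through day 8 alone. Ddx4, the Vasa helicase, had 13.7, 12.05 and 11.7 FPKM at day 8, against 4.52, 4.74 and 4.06 FPKM at day 0 (1.31). Dazl had 6.94, 8.196 and 9.81 FPKM at day 8, against 2.58, 3.13 and 2.79 FPKM at day 0 (1.27). Sycp3, of the synaptonemal complex, fell to 1.96, 2.51 and 2.80 FPKM, against 20.6, 19.5 and 16.1 FPKM at day 0 (-2.53).

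Most transcripts of growth and division were lower at day 8. Of 22 DNA replication genes 21 fell (median -0.99), and Ccne2 was not called (adjusted p = 0.634). Mcm5, a subunit of the replicative helicase, had 53.95, 54.8 and 54.2 FPKM in the day 8 libraries, against 144, 142 and 150.4 FPKM in the day 0 libraries (log2 fold change -1.41, SE 0.0473, adjusted p = 3.04e-13). Of 17 mitotic genes 15 fell (median -0.91), Aurka most (-1.48), and Aurkb and Mki67 were not called (adjusted p = 0.353 and 0.855). All 19 genes of ribosome assembly fell (median -0.82), for example Rrn3, an initiation factor of RNA polymerase I, with 20.9, 20.6 and 22.2 FPKM at day 8, against 63.2, 63.6 and 67.1 FPKM at day 0 (-1.56). In the respiratory chain 15 of 21 fell (median -0.68). Abundant genes mostly fell. Of genes with a mean of 20 to 100 FPKM at day 0, 67.05% fell (median -0.44). Of those over 100 FPKM it was 67.47% (median -0.41). The respiratory chain genes summed to 15748 to 18537 FPKM at day 0, and their count of falls lies near that share. Among inhibitors, Rb family genes and D cyclins 7 of 15 rose and 4 fell, against 34.5% and 36.4% of all genes. The D cyclins moved apart. Ccnd2, which passed the limit through day 8 alone, had 4.14, 3.81 and 4.11 FPKM at day 8, against 0.0404, 0.0370 and 0.0583 FPKM at day 0 (2.26). Ccnd1 had 1.92, 1.805 and 1.94 FPKM at day 8, against 11.1, 10.6 and 15.7 FPKM at day 0 (-2.20). Ccnd3 was not called (adjusted p = 0.203).

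Most signalling pathways held rises and falls side by side, as did all genes tested (34.5% higher and 36.4% lower). In the Nodal and activin pathway 7 of 15 rose and 7 fell. Of the 15 genes, 1 passed the limit through day 8 alone and 2 through day 0 alone. The ligand gene Nodal had 7.34, 8.01 and 9.904 FPKM in the day 8 libraries, against 34.5, 37.1 and 30.6 FPKM in the day 0 libraries (log2 fold change -1.90, SE 0.154, adjusted p = 1.81e-08), and the antagonist genes Lefty1 (-2.66) and Lefty2 (-2.98) and the co-factor gene Foxh1 (-1.58) fell with it. Smad3, which carries the signal to the nucleus, rose, with 11.1, 10.9 and 9.61 FPKM at day 8, against 1.94, 1.88 and 1.72 FPKM at day 0 (2.02), as did Smad2 (1.12). Of the Fgf pathway 6 genes rose and 10 fell. In this list 3 genes, Fgfr2 among them, passed the limit through day 8 alone and 1 through day 0 alone. The direction of such genes was set by the rule. Fgf4, the stem cell ligand, fell to 2.63, 2.69 and 3.48 FPKM at day 8, against 78.7, 77.6 and 70.2 FPKM at day 0 (-4.29). Feedback and target genes of the pathway fell too, with Spry4 at 0.369, 0.422 and 0.868 FPKM at day 8, against 41.1, 36.1 and 39.2 FPKM at day 0 (-4.69), Etv4 (-3.90) and Etv5 (-3.18). Fgfr2, the receptor of FGF10 on epithelium, rose, with 5.99, 5.33 and 5.15 FPKM at day 8, against 0.113, 0.205 and 0.106 FPKM at day 0 (log2 fold change 2.51, SE 0.101, adjusted p = 2.52e-12).

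Of 11 Bmp genes 9 rose and 2 fell (median 1.30), and 2 of the 11 passed the limit through day 8 alone. The ligand genes moved in opposite directions. Bmp4 had 5.87, 5.695 and 5.39 FPKM at day 8, against 33.9, 32.2 and 39.1 FPKM at day 0 (-2.43). Bmp7 had 10.6, 11.2 and 10.4 FPKM at day 8, against 1.00, 1.05 and 0.603 FPKM at day 0 (2.65). The target genes Id2 (2.89), Id3 (1.78) and Smad6 (2.65) rose. In the Wnt list 8 of 10 rose, Nkd1 most (1.06), and Notum, a Wnt deacylase, fell (-1.52). Of these 10 genes 2 passed the limit through day 8 alone. Of the pathway of leukaemia inhibitory factor, which was in the day 0 medium, Socs3, its feedback target, fell to 6.73, 6.85 and 5.33 FPKM, against 56.1, 53.6 and 49.3 FPKM at day 0 (-2.89). The receptor gene Lifr fell as well (-1.36), and Lif itself rose (1.37).

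Imprinted genes, expressed from 1 parental allele, rose in 15 of 21 cases and fell in 3 (median 0.70). Over all genes tested 34.5% rose and 36.4% fell. Of the 21 genes 5 passed the limit through day 8 alone. Peg3, which encodes a zinc-finger protein, had 68.7, 62.9 and 57.7 FPKM in the day 8 libraries, against 3.72, 3.54 and 3.54 FPKM in the day 0 libraries (log2 fold change 3.80, SE 0.116, adjusted p = 1.07e-13). Igf2 had 8.58, 9.81 and 10.2 FPKM at day 8, against 0.00553, 0 and 0.0240 FPKM at day 0 (3.38), and its reciprocally imprinted neighbour H19 had 4.07, 4.64 and 3.705 FPKM at day 8, against 0.0386, 0.212 and 0.0929 FPKM at day 0 (2.20). Phlda2 fell to 10.01, 9.98 and 11.7 FPKM, against 38.9, 51.8 and 43.6 FPKM at day 0 (-1.98). All 8 genes of class I antigen presentation rose (median 1.80), 3 of them having passed the limit through day 8 alone. B2m, the light chain, had 110.0, 112 and 109.5 FPKM at day 8, against 26.7, 29.97 and 21.2 FPKM at day 0 (2.06), and the transporter gene Tap1 had 6.14, 6.68 and 5.79 FPKM at day 8, against 0.595, 0.680 and 0.442 FPKM at day 0 (2.20). Of DNA methylation genes, Tet1 (-3.10), Tet2 (-1.95) and Dnmt3l (-1.89) fell while Tet3 rose (1.60). Within Polycomb, Eed had 34.9, 33.2 and 33.04 FPKM at day 8, against 115, 126 and 125 FPKM at day 0 (-1.82), and Cbx8 rose (1.65).

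Outside these lists, the largest rises held Pmp22, a myelin and junction protein, with 138, 129.9 and 114 FPKM in the day 8 libraries, against 0.403, 0.473 and 0.214 FPKM in the day 0 libraries (log2 fold change 6.56, SE 0.137, adjusted p = 1.66e-15). Gas1, a Hedgehog co-receptor, had 56.5, 55.4 and 52.9 FPKM at day 8, against 0.631, 0.458 and 0.355 FPKM at day 0 (5.24). Cyr61, a matrix protein and Yap target, had 90.8, 91.7 and 71.1 FPKM at day 8, against 1.22, 1.62 and 1.31 FPKM at day 0 (5.16), and Zfp703, a co-repressor gene, had 34.7, 34.95 and 35.1 FPKM at day 8, against 0.0747, 0.103 and 0.0809 FPKM at day 0 (5.05). Pmp22 and Zfp703 passed the limit through day 8 alone, so their direction was set by the rule. Hoxb5os, an antisense transcript in the B cluster, is uncertain like the single Hox values above. The deepest fall was that of Txnip, an inhibitor of thioredoxin and of glucose uptake, with 0.845, 0.947 and 0.807 FPKM in the day 8 libraries, against 261, 291 and 218 FPKM in the day 0 libraries (log2 fold change -7.10, SE 0.171, adjusted p = 2.19e-14). Its relative Arrdc4, which also limits glucose uptake, had 1.16, 1.33 and 0.789 FPKM at day 8, against 39.03, 46.8 and 33.6 FPKM at day 0 (-4.28), and the glucose importer gene Slc2a1 rose, with 179, 204 and 206 FPKM at day 8, against 31.3, 29.7 and 38.5 FPKM at day 0 (2.53). In a list of 21 glycolysis and hypoxia genes 7 rose, 4 fell and 10 were not called (median 0.04). Tdh, the threonine dehydrogenase of mouse stem cells, fell to 2.73, 3.44 and 4.36 FPKM, against 213, 229 and 249 FPKM at day 0 (-5.69). Igkv12-89 passed the limit through day 0 alone, listed at 0 in all 3 day 8 libraries and at 25.8, 28.1 and 26.8 FPKM at day 0. Platr10, a noncoding transcript of pluripotent cells, fell by 5.33. Among 391 lincRNAs 75 (19.2%) rose and 193 (49.4%) fell, against 38.7% and 37.5% of 12787 protein-coding genes.

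Among the genes tested, the day response of Ctrlv2 cells differed from that of Arf-B cells for many genes while its outline was shared. Genes were kept on their Arf-B values alone, so genes that reached the limit only in Ctrlv2 were not tested. The Ctrlv2 counts here and below are therefore not its whole response. The shared percentages and the counts of differences in each direction depend on this filter. Of the Arf-B rises 4132 were also called in Ctrlv2 (77.8% of the Arf-B rises and 75.8% of the 5451 Ctrlv2 rises, which are 35.4% of genes). Of the falls 4296 were shared (76.6% of Arf-B and 77.4% of the 5552 Ctrlv2 falls, 36.1% of genes). Opposite calls were 268 genes up in Arf-B and 240 down. A test of the difference itself, Arf-B response minus Ctrlv2 response, called 2847 genes above 0 (18.5%) and 2662 below (17.3%), of which 538 (3.5%) and 356 (2.31%) passed 2-fold. Of the genes that differed, 1133 (20.57%) had a smaller fall in Arf-B and 1048 (19.02%) a smaller rise. Signs were opposite, called or not, for 815 with Arf-B up (14.79%) and 901 with Arf-B down (16.36%). Means below are given ± SD with n = 3.

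Naive pluripotency genes fell less in Arf-B, while the core list was divided. The difference was above 0 for 13 of 15 naive genes and below for none, and the list medians were -3.06 in Arf-B and -4.44 in Ctrlv2. The Arf-C median was -3.28, close to that of Arf-B, and no naive gene was called between these lines. Of 15 core genes 7 differences were above 0, 1 was below (Dnmt3l, -1.21) and 7 were not called, with a median difference of 0.18. Nanog averaged 34.5 ± 9.98 at day 8 and 267 ± 58.03 FPKM at day 0 in Arf-B cells, and 0.537 ± 0.478 and 262 ± 12.4 FPKM in Ctrlv2 cells (log2 difference 4.55, SE 0.411, adjusted p = 1.92e-06). The gap lay at day 8 (log2 difference 4.55, SE 0.291, adjusted p = 3.64e-08 for Arf-B minus Ctrlv2 at that day). Pou5f1 averaged 24.02 ± 3.36 at day 8 and 494 ± 26.3 FPKM at day 0 in Arf-B cells, and 3.53 ± 0.570 and 657 ± 46.01 FPKM in Ctrlv2 cells (log2 difference 2.87, SE 0.246, adjusted p = 6.96e-07), again with a gap at day 8 (2.46, adjusted p = 4.89e-08). Differences of the same sign were found for Sox2 (1.30, adjusted p = 1.05e-04), Esrrb (2.19, adjusted p = 4.70e-06) and Dppa5a (3.18, adjusted p = 1.15e-07). Sept1 (3.05) and Fam25c (3.30) also fell less.

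Several large differences lay at day 0 instead, where 21.2% of genes were higher and 20.8% lower in Arf-B than in Ctrlv2, against 18% and 17.6% at day 8. Stra8 averaged 668 ± 15.1 at day 8 and 1.54 ± 0.219 FPKM at day 0 in Arf-B cells, and 807 ± 46.1 and 41.9 ± 6.48 FPKM in Ctrlv2 cells, so that its larger response in Arf-B (log2 difference 3.80, SE 0.141, adjusted p = 2.26e-10) came with a lower start (-4.07 at day 0, adjusted p = 1.93e-13). The calcium-binding protein gene S100a6 averaged 1.04 ± 0.117 at day 8 and 0.749 ± 0.214 FPKM at day 0 in Arf-B cells, and 1.86 ± 0.289 and 29.1 ± 1.85 FPKM in Ctrlv2 cells (log2 difference 3.63, SE 0.165, adjusted p = 1.01e-09), also lower at day 0 (-4.11, adjusted p = 8.95e-13). Setbp1 was higher at day 0 in Arf-B (3.57, adjusted p = 1.71e-12) and averaged 4.199 ± 0.173 at day 8 and 13.1 ± 1.49 FPKM at day 0 in Arf-B cells, and 2.96 ± 0.213 and 0.187 ± 0.0251 FPKM in Ctrlv2 cells (log2 difference -3.17, SE 0.151, adjusted p = 1.62e-09). Fbxo2 moved in opposite directions, with 58.9 ± 3.64 at day 8 and 11.3 ± 1.45 FPKM at day 0 in Arf-B cells, and 26.7 ± 0.631 and 56.5 ± 3.14 FPKM in Ctrlv2 cells (log2 difference 3.34, SE 0.131, adjusted p = 2.85e-10). Rhox13, a germline homeobox gene on the X chromosome, averaged 1.73 ± 0.523 at day 8 and 0.873 ± 0.355 FPKM at day 0 in Arf-B cells, and 1.16 ± 0.253 and 15.7 ± 1.41 FPKM in Ctrlv2 cells (log2 difference 3.49, SE 0.332, adjusted p = 1.78e-06).

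Parietal endoderm genes and the actin genes Acta1 and Acta2 responded less in Arf-B than in Ctrlv2. The difference was below 0 for 11 of 12 parietal endoderm genes, with list medians of 1.90 in Arf-B and 2.75 in Ctrlv2. The Arf-C median was 1.94, close to that of Arf-B. Lama1 averaged 4.71 ± 0.814 at day 8 and 13.7 ± 2.301 FPKM at day 0 in Arf-B cells, and 72.5 ± 18.3 and 36.8 ± 2.89 FPKM in Ctrlv2 cells (log2 difference -2.29, SE 0.243, adjusted p = 5.24e-06). It was lower in Arf-B at both days (-3.66 at day 8, adjusted p = 6.09e-10, and -1.37 at day 0, adjusted p = 1.40e-05). Col4a1 averaged 12.9 ± 1.10 at day 8 and 1.97 ± 0.0880 FPKM at day 0 in Arf-B cells, and 72.9 ± 11.9 and 3.998 ± 0.264 FPKM in Ctrlv2 cells (log2 difference -1.65, SE 0.140, adjusted p = 4.61e-07), and Gata4 6.39 ± 0.309 at day 8 and 1.57 ± 0.276 FPKM at day 0 in Arf-B cells, and 25.1 ± 1.69 and 1.72 ± 0.282 FPKM in Ctrlv2 cells (log2 difference -1.74, SE 0.141, adjusted p = 2.78e-07). Of 15 epithelial genes the difference was called above 0 for 7, below for none, and was not called for 8. Epcam and Cdh1 fell in Ctrlv2 and were not called in Arf-B. Epcam averaged 90.98 ± 4.87 at day 8 and 95.05 ± 5.13 FPKM at day 0 in Arf-B cells, and 23.1 ± 2.49 and 81.3 ± 3.58 FPKM in Ctrlv2 cells (log2 difference 1.72, SE 0.118, adjusted p = 5.69e-08), with the gap at day 8 (1.94, adjusted p = 1.25e-10). Cdh1 differed likewise (log2 difference 0.93, SE 0.0930, adjusted p = 2.18e-06).

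Of the mesenchymal list 8 of 14 differences were below 0 and 2 above. Acta1, an actin of striated muscle, averaged 1.51 ± 0.318 at day 8 and 0.132 ± 0.0625 FPKM at day 0 in Arf-B cells, and 15.4 ± 1.26 and 0.0552 ± 0.0612 FPKM in Ctrlv2 cells (log2 difference -2.82, SE 0.155, adjusted p = 7.53e-09). Acta2, the smooth muscle actin gene, averaged 1.62 ± 0.283 FPKM at day 8 in Arf-B and 15.7 ± 4.53 in Ctrlv2 (log2 difference -2.62, SE 0.211, adjusted p = 2.63e-07), a call lost with voom on reads (adjusted p = 0.190). Hmox1, the haem oxygenase gene, averaged 50.3 ± 4.91 at day 8 and 43.9 ± 1.77 FPKM at day 0 in Arf-B cells, and 363 ± 160.3 and 35.7 ± 3.22 FPKM in Ctrlv2 cells (log2 difference -3.02, SE 0.356, adjusted p = 1.90e-05), and differed at day 8 (-2.73, adjusted p = 1.44e-06). Pmel (-3.36), Spink1 (-2.78), Stmn4 (-2.70) and Fabp3 (-2.64) complete the largest differences below 0. Cdkn2a rose by more in Arf-B (42.7 ± 2.33 at day 8 and 1.99 ± 0.269 FPKM at day 0 in Arf-B cells, and 32.9 ± 1.22 and 2.72 ± 0.752 FPKM in Ctrlv2 cells; log2 difference 0.66, SE 0.157, adjusted p = 0.00388), and Mdm2 by less (log2 difference -0.87, SE 0.122, adjusted p = 5.40e-05). Hoxb1 averaged 75.4 ± 7.69 FPKM at day 8 in Arf-B and 19.1 ± 0.576 FPKM in Ctrlv2 (1.92, adjusted p = 4.90e-11 at day 8). Hoxb4 averaged 21.3 ± 1.69 FPKM at day 8 in Arf-B and 32.4 ± 2.52 FPKM in Ctrlv2 (-0.58, adjusted p = 7.96e-06 at day 8). Both were near 0 at day 0 in Arf-B and Ctrlv2, and the sign of their difference in response depended on the test: 1.84 and -0.51 with limma on log2(FPKM + 1), both called, and -1.07 and 0.72 with voom on reads, neither called (adjusted p = 0.440 and 0.431).

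**Figure D5:**
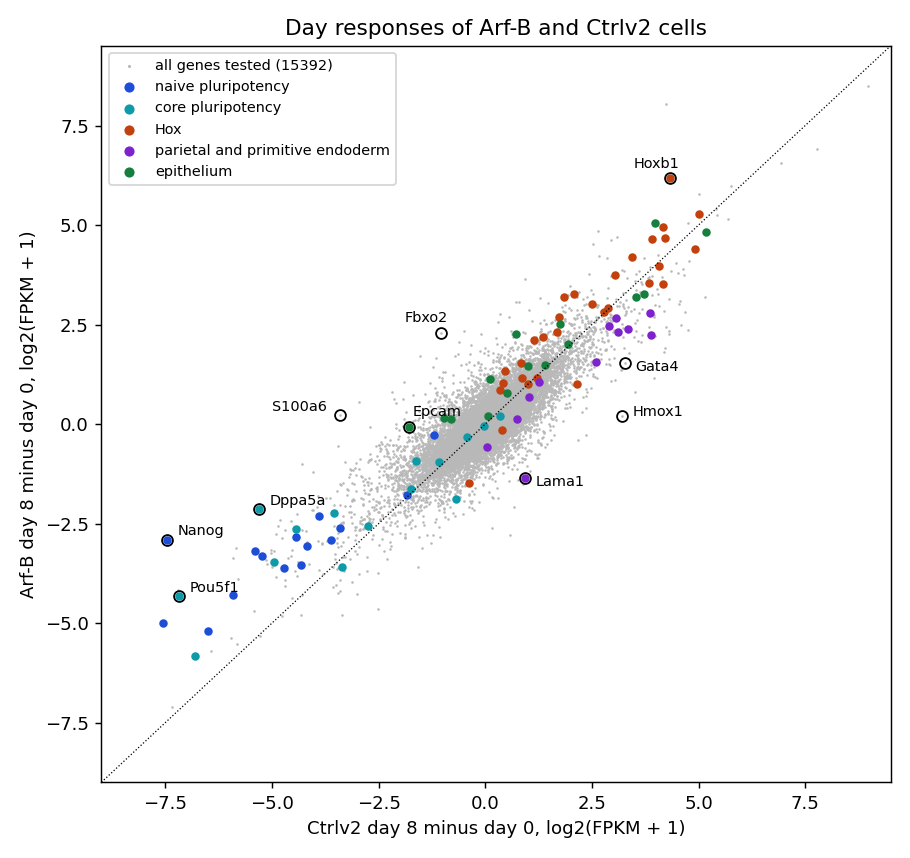
Day responses of 15392 genes in Arf-B cells (vertical axis) and Ctrlv2 cells (horizontal axis), each as day 8 minus day 0 in log2(FPKM + 1), with the dotted line at equality. Each grey point is a gene, and 5 lists are coloured. Nanog, Pou5f1 and Dppa5a lie above the line, having fallen less in Arf-B, and Lama1, Gata4 and Hmox1 lie below it.

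Against Arf-C the difference in day response passed the test for 10 genes (0.065%), 7 above 0 (0.0455%) and 3 below (0.0195%). Peg10, an imprinted gene derived from a retrotransposon, rose less in Arf-B, averaging 4.298 ± 0.348 at day 8 and 0.402 ± 0.141 FPKM at day 0, and 14.5 ± 1.45 and 0.294 ± 0.0419 FPKM in Arf-C (log2 difference -1.66, SE 0.138, adjusted p = 4.02e-05). Mest, another imprinted gene, differed by -0.79 (adjusted p = 0.0445). Lefty2 and Lefty1 fell less in Arf-B (1.64 and 1.57, adjusted p = 0.0301 and 0.0475). Id2 and B2m rose more (0.85 and 0.86, adjusted p = 0.0490 and 0.0412). Slc9a3r2 (0.91), Trpm1 (0.98), Myl6b (0.69) and CT010467.1 (-1.69) complete the set. The calls of 9 of these 10 genes were each lost in at least 1 alternative fit, while that of Peg10 held in all that were run. The response was shared for 4789 rises (90.2% of Arf-B and 91.9% of the 5210 Arf-C rises, 33.8% of genes) and 4990 falls (89% and 88.7% of the 5628 Arf-C falls, 36.6% of genes). These counts and shares leave out genes that reached the limit only in Arf-C, since genes were kept on their Arf-B values.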

How the data were processed

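Polyadenylated RNA was sequenced from Arf-B, Arf-C and Ctrlv2 cells at day 8 and day 0, 3 libraries each, 18 in all. The authors deposited FPKM per gene for each library in a single table, with gene coordinates on mm10. HISAT2, featureCounts and DESeq2 are named in the submitters' processing notes, with no versions. All 413772 values above 0 in the 18 libraries were whole reads within 0.001 of a read once multiplied by gene length and library total, and the read totals above come from them.

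Genes needed 0.5 FPKM in 3 of the 6 Arf-B libraries. limma (version 3.58.1, R 4.3.3) was fitted to log2(FPKM + 1) over all 18 libraries with 1 coefficient per group and a trended, robust prior variance. P-values were Benjamini-Hochberg adjusted over 15392 genes and called under 0.05. The difference between the lines' day responses was tested as a contrast of that fit. FPKM divides by library total, so a rise of abundant genes lowers all others. The fit was tested on simulated data.

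Genes and lists were chosen with earlier results of these data known. Named genes were the 6 of the p19Arf pathway (Cdkn2a, Cdkn2b, Trp53, Mdm2, Cdkn1a and Npm1), the 15 largest rises and falls with a mean of at least 5 FPKM, the 8 and 4 largest differences per direction from Ctrlv2 and Arf-C, list members of the largest change and any member of the lists the protocol addresses. Bax, Ccne2, Dazl, Fgfr2, Fn1, Foxh1, H19, Id3, Itga6, Lama1, Mest, Mki67, Aurkb, Myl6b, Nid1, Nodal, Phlda2, Pmaip1, Sesn1, Smad2, Tet3, Tmem92, Tubb3 and Vim were named after their values were seen, as were the differences from Ctrlv2 of Pou5f1, Sox2, Esrrb, Epcam, Cdh1, Gata4, Lama1, Col4a1, Cdkn2a, Mdm2, Hoxb1 and Hoxb4. Alternatives changed the pseudocount (0.1), the filter, the scaling, the libraries fitted and the test, and left out each library in turn. Promoters came from RefSeq (GRCm38.p6). Some list members are counted in their lists and not reported singly here.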

Additional observations from a re-analysis of the deposited data

Results flagged for a closer look

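Tests of the Arf-B day response against that of another line covered genes kept on their Arf-B values alone. Against Ctrlv2 they found 2847 genes above 0 and 2662 below, and against Arf-C 7 above and 3 below. These results are listed because the response differed between lines in a test of the difference itself, given here as log2 differences. Above Ctrlv2 stood Nanog (4.55), Stra8 (3.80), S100a6 (3.63), Rhox13 (3.49), Fbxo2 (3.34), Fam25c (3.30), Dppa5a (3.18) and Sept1 (3.05), and the chosen genes Pou5f1 (2.87), Esrrb (2.19), Epcam (1.72), Hoxb1 (1.84), Sox2 (1.30), Cdh1 (0.93) and Cdkn2a (0.66). Below Ctrlv2 stood Pmel (-3.36), Setbp1 (-3.17), Hmox1 (-3.02), Acta1 (-2.82), Spink1 (-2.78), Stmn4 (-2.70), Fabp3 (-2.64) and Acta2 (-2.62), and the chosen genes Lama1 (-2.29), Gata4 (-1.74), Col4a1 (-1.65), Mdm2 (-0.87) and Hoxb4 (-0.51). Against Arf-C the differences were Lefty2 (1.64), Lefty1 (1.57), Trpm1 (0.98), Slc9a3r2 (0.91), B2m (0.86), Id2 (0.85), Myl6b (0.69), Mest (-0.79), Peg10 (-1.66) and CT010467.1 (-1.69). Hmox1 varied widely among the Ctrlv2 day 8 libraries (363 ± 160.3 FPKM, SD, n = 3).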

How the results depend on the processing

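Both counts of called genes stayed within 1.5 times under every alternative run: 5202 higher and 5503 lower with the replicate block, 5378 and 5690 with voom on reads, and 5053 to 5105 and 5269 to 5398 with a library left out. Replicate numbers were not used to pair the libraries in the main fit. Deviations of same-numbered libraries correlated at 0.1038, 0.02245 and -0.01151. With 3 libraries per day these values cannot settle whether cultures were paired. At least 2-fold rises were 2839 with a pseudocount of 0.1 and 2947 with voom, and falls 2071 with voom, by the scale itself. Genes with a higher response than Arf-C were 2 in a fit of 12 libraries, 1 with the replicate block, 3 with thinned reads and 1 to 4 with a library left out. Genes with a lower one were 1 with 12 libraries and up to 5 with a library left out (without Arf-B day 0 replicate 1). Lin28a reversed to 0.18 with equal FPKM sums, and the differences from Ctrlv2 of Hoxb1 and Hoxb4 to -1.07 and 0.72 with voom. The cause of these moves was not tested. Of single-gene results in all settings 3929 kept direction and call. Counts of list members moved by over 1.5 times in 27 cases, 12 of them where a mean of at least 1 FPKM was required, which tests fewer genes. Calls of the day response were gained in 15 cases by Aurkb, Ccnd3, Cdh1, Cxcr4, Lin28b, Myl6b, Prdm1, Rxrb and S100a6, 7 of these cases with equal FPKM sums. Rhox13, Fabp3 and Gbx2 lost their day calls in some, and Acta2, Hoxb4 and 9 of the 10 genes that differed from Arf-C their difference between lines. Depth limits genes near 0.5 FPKM most.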

Other observations

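Immediate early genes, which respond to serum and handling, moved in both directions: 5 of 11 rose and 4 fell. Over all genes tested 34.5% rose and 36.4% fell, and the counts in this paragraph are to be read against those shares. Jun had 29.4, 34.4 and 26.5 FPKM at day 8, against 1.29, 1.54 and 1.38 FPKM at day 0 (3.69), and Atf3 rose by 2.42. Among apoptosis regulators 9 of 15 rose and 5 fell, Casp8, an initiator caspase, rising by 1.67 and Bcl2l1, which encodes Bcl-xL, by 1.33. Of 9 Notch genes 5 rose and 4 fell, and 1 of the 9 passed the limit through day 0 alone. The receptor genes Notch2 (1.54) and Notch3 (1.55) rose, whereas the ligand gene Jag1 fell, with 0.672, 0.969 and 0.828 FPKM at day 8, against 5.24, 5.199 and 5.03 FPKM at day 0 (-1.76).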
